A study of Mus musculus with 9 samples.

Results

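The Fc gamma receptors are the receptors through which macrophages bind the constant part of IgG antibodies. Reported here are the 4 mouse genes of this family (Fcgr1, Fcgr2b, Fcgr3 and Fcgr4) and 5 genes of the machinery next to them, namely the signalling subunit Fcer1g, the kinases Lyn, Fgr and Syk, and the phosphatase Inpp5d. The members were chosen by symbol, as rows of the deposited table whose Ensembl identifier carries that symbol in GENCODE M21. All 9 were found among 28137 identifiers, of which 27533 had a name in this annotation. All 9 also passed the filter on low values in each comparison (a mean of at least 0.5 FPKM over the 6 libraries compared). FPKM, the deposited unit, is the number of fragments of a gene scaled to its length and to the size of the library.

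RNA-seq was performed on RAW264.7 cells, a macrophage-like line from a mouse leukemia. There were 9 libraries, of which 3 were labelled NC siRNA, 3 SFRP2 siRNA and 3 RAB6A siRNA, and NC is the control siRNA. Per the labels, cells of all groups received 60 nM siRNA with a lipofection reagent for 6 h, rested in complete medium for 12 h, and were then given 100 ng/ml lipopolysaccharide (LPS) for 24 h. All groups, the control included, were therefore LPS-treated, and no unstimulated cells were among these libraries. Every library title ends in 6H, and what this time refers to is not stated. The study's methods differ from the labels in the siRNA dose, the reagent, the medium and the time after transfection, and name interferon gamma beside LPS, and the labels were followed here. All libraries come from a single cell line, and neither the labels nor the general remark in the methods on repeated independent experiments says that these libraries were separate cultures, so p-values measure the spread between these libraries, which may be technical. The titles of the SFRP2 siRNA libraries number the siRNA from 1 to 3, and whether each received a different siRNA is not stated. The study's supplement lists 3 different SFRP2 siRNA sequences, also numbered 1 to 3, beside a single control sequence. The titles of the other groups are numbered from 1 to 3 as well. The spread within the SFRP2 siRNA group may therefore include differences between siRNAs. In such bulk samples, fewer cells of a kind and less RNA per cell cannot be told apart.

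The totals recovered from the FPKM values were 41608379 to 47149258 reads per NC library, 34743304 to 40562562 per SFRP2 siRNA library and 32758729 to 37833882 per RAB6A siRNA library. Of 9 macrophage markers, 8 had a mean of at least 0.5 FPKM in every group, and Mertk did not. Summed markers of B, T, NK and mast cells and of neutrophils were at most 0.335 FPKM in any library, those of epithelial cells at most 0.546 and those of fibroblasts at most 2.54. Rab6a, the gene targeted in the RAB6A siRNA group, was at 20.7 ± 0.445 FPKM there (SD, n = 3) and at 25.7 ± 1.48 in NC, a log2 fold change of -0.31 (limma, adjusted p = 0.0024) that was 0.02 (adjusted p = 0.793) once gene GC content and length were corrected for, an alternative chosen after seeing the data. Sfrp2 had 2 to 4 reads per library, and 2 in every NC library, so its knockdown could not be checked. The groups are therefore named by their labels throughout.

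Activating Fc gamma receptors consist of a ligand-binding alpha chain and the common gamma chain, which carries a tyrosine motif (ITAM) on its cytosolic tail. When IgG-coated particles cluster the receptors, Src family kinases phosphorylate this motif, Syk docks onto it, and phagocytosis and cytokine release follow. The inhibitory receptor FcgRIIB carries an opposite motif (ITIM), which recruits the lipid phosphatase SHIP1, and the balance between both kinds of receptor sets the threshold at which a macrophage responds to immune complexes.

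Fcgr2b, Fcgr4, Fcgr3, Fcer1g and Inpp5d lie on mouse chromosome 1 (GRCm38), at chr1:170958617-170976547 on the minus strand, chr1:171018920-171029761 on the plus strand, chr1:171051174-171064935 on the minus strand, chr1:171229572-171234365 on the minus strand and chr1:87620312-87720507 on the plus strand. The first 4 of these form a single neighbourhood. Fcgr1 lies apart from them at chr3:96282909-96293969 on the minus strand. Lyn (chr4:3678115-3813122) and Fgr (chr4:132974095-133001910) share chromosome 4 and Syk lies at chr13:52583173-52648792, all on the plus strand. All 9 are annotated as protein-coding genes. Of the exon bases of Fcgr2b, 2.68% are shared with the antisense gene Gm38204, whose mean was 0.200 FPKM, and 6.09% of those of Lyn with a lincRNA on the opposite strand. Whether counting used strand is not given in the sources used here, so reads of such partners cannot be told apart there.

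The promoters of the 4 receptor genes are shown because they carry or lack the letters GAGGAA. These were taken here as the core of the binding site of PU.1, the transcription factor of the macrophage lineage (its gene is Spi1). Each runs from 250 bases before to 50 bases after the start in RefSeq (GRCm38.p6), 5′ to 3′ on the strand of the gene. Capitals mark the core GAGGAA, read as TTCCTC where it lies on the other strand.
Fcgr1, chr3:96293920-96294219: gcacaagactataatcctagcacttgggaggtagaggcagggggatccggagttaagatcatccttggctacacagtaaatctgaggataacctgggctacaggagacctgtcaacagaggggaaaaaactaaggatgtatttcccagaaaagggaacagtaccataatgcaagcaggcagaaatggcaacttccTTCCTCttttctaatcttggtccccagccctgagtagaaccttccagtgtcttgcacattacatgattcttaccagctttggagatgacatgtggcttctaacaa
Fcgr3, chr1:171059354-171059653: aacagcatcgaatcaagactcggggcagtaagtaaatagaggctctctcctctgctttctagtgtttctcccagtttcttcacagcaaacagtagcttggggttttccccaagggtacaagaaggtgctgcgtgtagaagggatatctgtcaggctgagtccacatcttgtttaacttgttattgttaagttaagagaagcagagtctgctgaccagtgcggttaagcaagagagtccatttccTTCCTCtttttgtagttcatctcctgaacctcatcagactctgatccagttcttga
Fcgr4, chr1:171018676-171018975: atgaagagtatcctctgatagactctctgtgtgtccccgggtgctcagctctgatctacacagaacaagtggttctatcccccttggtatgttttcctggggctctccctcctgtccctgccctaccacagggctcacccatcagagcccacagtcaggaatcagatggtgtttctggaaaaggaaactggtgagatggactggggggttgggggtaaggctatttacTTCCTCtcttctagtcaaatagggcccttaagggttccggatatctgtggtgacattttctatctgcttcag
Fcgr2b, chr1:170976022-170976321: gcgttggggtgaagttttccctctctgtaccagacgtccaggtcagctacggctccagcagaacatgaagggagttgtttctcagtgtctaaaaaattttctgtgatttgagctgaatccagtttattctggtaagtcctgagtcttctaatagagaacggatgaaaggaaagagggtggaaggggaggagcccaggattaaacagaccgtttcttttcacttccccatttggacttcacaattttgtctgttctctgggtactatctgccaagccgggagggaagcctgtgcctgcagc
The promoters of the 3 activating receptors hold the core on the reverse strand, its first base at -55 in Fcgr1, -6 in Fcgr3 and -22 in Fcgr4 from the start. That of the inhibitory receptor Fcgr2b does not hold these letters. Other forms of a PU.1 site were not searched, so this does not show that Fcgr2b lacks one. The windows shown for Fcgr3 and Fcgr2b lie inside the genes as GENCODE draws them, so that other starts exist.

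Promoters were listed for 8 of the 9 members, 10 in all since Fcgr3 and Syk have more than 1, and the 2 of Fcgr3 overlap. Of these 10, 7 held the PU.1 core on either strand, from 6 genes (Fcgr1, Fcgr3, Fcgr4, Syk, Fgr and Inpp5d), whereas 28.3% of 32851 promoters of this length in the genome held it. Fcgr2b, Fcer1g and the first of both Syk promoters did not. An interferon gamma activation site (TTCNNNGAA, which reads the same on both strands) was in the promoter of Fcgr1 at -109 and in no other of the 10, against 8.30% of all promoters. A TATA box (TATAAA or TTTATA) was in none of the 10, against 13.6% of all promoters. A match of letters is a description and does not show binding.

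A second sequence is shown because it limits how reads of 2 receptors with opposite roles can be told apart. Fcgr2b and Fcgr3 share a run of 129 identical coding bases, in exons 3 and 4 of both.
Fcgr2b and Fcgr3, shared run: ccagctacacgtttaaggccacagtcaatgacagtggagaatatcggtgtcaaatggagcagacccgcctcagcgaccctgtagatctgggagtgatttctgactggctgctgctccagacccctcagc
In Fcgr2b it lies at chr1:170967980-170968081 and chr1:170966674-170966700, in Fcgr3 at chr1:171057691-171057792 and chr1:171054167-171054193, on the minus strand. Of all stretches of 50 bases in the Fcgr3 transcripts, 9.58% also occur in Fcgr2b, which makes up 2.92% of those of Fcgr2b. At 100 bases the shares were 2.54% and 0.753%, and at 150 bases no stretch was shared. No stretch of 50 bases was shared with Fcgr1 or Fcgr4. How reads that match both genes were counted is not given in the sources used here, so the values of Fcgr2b and Fcgr3 carry this uncertainty.

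In NC libraries, that is, in control cells under LPS, the common gamma chain was the most abundant of the 9 members, at 419 ± 21.3 FPKM (SD, n = 3). It was followed by Fcgr1 (66.6 ± 1.25), Lyn (59.0 ± 3.51), Fcgr3 (28.1 ± 2.32), Fcgr4 (25.7 ± 0.708), Syk (17.9 ± 1.26), Inpp5d (11.4 ± 0.671), Fcgr2b (8.59 ± 0.238) and Fgr (0.926 ± 0.118). FPKM is per length, which lets levels of these genes be compared with a limit. The length is that of all annotated exons of a gene, such as 5790 bases over 7 transcripts for Fcgr2b. A gene with exons that these cells do not use would therefore read too low. The ranges over the 3 libraries did not overlap between neighbours in this order except for Fcgr3 and Fcgr4. Behind these values stood 11176 to 19186 reads per library for Fcer1g and 126 to 279 for Fgr, the member of lowest depth.

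In libraries labelled SFRP2 siRNA the order was the same except that Lyn (60.0 ± 3.56 FPKM) stood before Fcgr1 (56.7 ± 3.33), and the ranges of these overlapped, as did those of Fcgr3 and Fcgr4. In RAB6A siRNA libraries Fcer1g was followed by Lyn, Fcgr3, Fcgr1, Fcgr4, Inpp5d, Syk, Fcgr2b and Fgr. There Fcgr3 and Fcgr1 overlapped, as did Fcgr4 and Inpp5d. Syk stood above Inpp5d in every NC and SFRP2 siRNA library and below it in every RAB6A siRNA library.

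**Figure D1:**
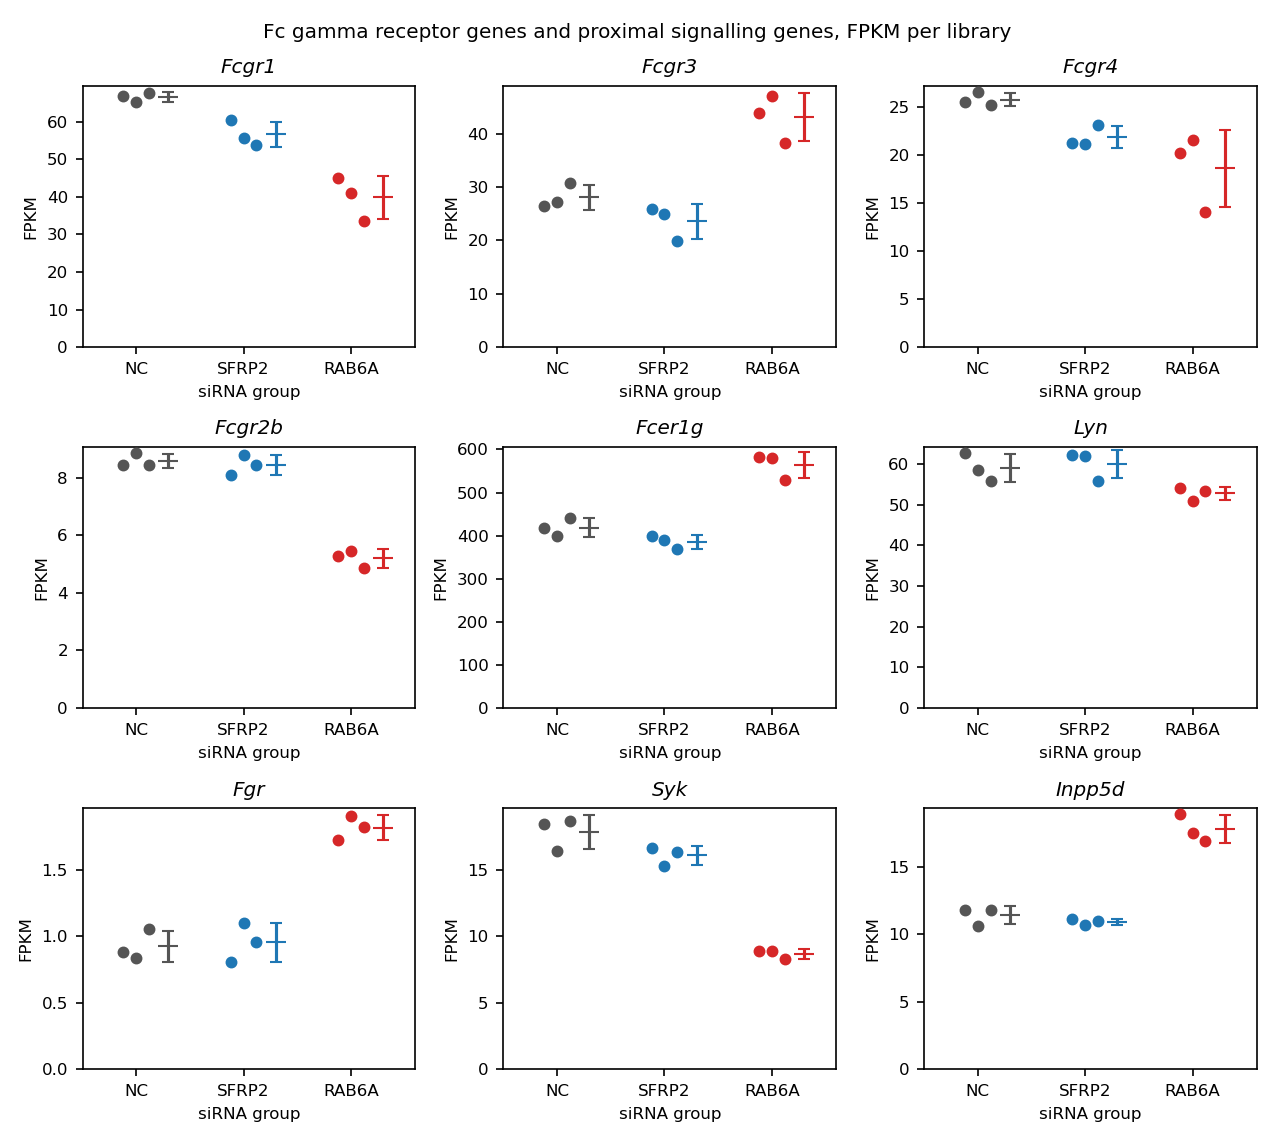
FPKM of the 9 members in each library, by siRNA group; points are libraries in the order of their replicate number, and the bar beside them gives the mean with its SD (n = 3), on axes from 0. RAB6A siRNA libraries lie apart from NC libraries for all 9 genes, as they do for 77.4% of all genes tested. They lie below NC for 5 and above it for Fcgr3, Fcer1g, Fgr and Inpp5d. Fcer1g turns lower after quantile normalization and Lyn higher after a correction for GC content and length.

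Comparison of RAB6A siRNA with NC asks what the libraries labelled with the knockdown of Rab6a, a small GTPase of the Golgi, show for these genes. All 9 members passed an adjusted p of 0.05 (limma over 12712 genes), 4 higher and 5 lower. At the same threshold 74.1% of all genes tested were called (37.6% higher and 36.5% lower), so that being called sets no member apart from most genes, and what follows are their directions and sizes. Fcer1g turned lower under quantile normalization and Lyn turned higher under the correction for GC content and length, while the other 7 kept their direction under all alternatives. All 9 also had groups that did not overlap, as did 77.4% of all genes. With 3 libraries against 3, the exact two-sided permutation test cannot go below p = 0.1, the value it gave for each of the 9. Of the 9, Syk alone passed an absolute log2 fold change of 1 as well, the study's criterion for a differentially expressed gene (DEG), which 30.1% of all genes met. Syk was close to this limit and Fgr not far from it.

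Among the activating alpha chains, Fcgr1 and Fcgr4 fell and Fcgr3 rose. Fcgr1, the high-affinity receptor for monomeric IgG, was at 66.8, 65.2 and 67.7 FPKM in NC replicates 1 to 3 and at 45.0, 41.1 and 33.6 in those of RAB6A siRNA. The highest RAB6A siRNA library lay below the lowest of NC. The log2 fold change was -0.75 (SE 0.10, adjusted p = 3.7e-04, limma).

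Fcgr3, a low-affinity receptor for immune complexes, moved the other way. It was at 26.4, 27.2 and 30.7 FPKM in NC and at 43.9, 47.2 and 38.3 in RAB6A siRNA libraries. No library of one group reached those of the other, and the log2 fold change was 0.61 (SE 0.09, adjusted p = 6.3e-04, limma). It lay between 0.55 and 0.75 under all alternatives.

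Fcgr4, a receptor of intermediate affinity for some IgG subclasses, had 25.5, 26.5 and 25.2 FPKM in NC and 20.2, 21.5 and 14.02 in RAB6A siRNA libraries. RAB6A siRNA replicate 3 was lower than the other two by more than these lay below NC. The log2 fold change was -0.49 (SE 0.15, adjusted p = 0.0193, limma), and -0.30 (adjusted p = 0.0031) without this library. The call was lost without NC replicate 2 (-0.47, adjusted p = 0.0572) and under quantile normalization (-0.36, adjusted p = 0.0719). RAB6A siRNA replicate 3 was the lowest library of its group for 7 of the 9 members.

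Fcgr2b, the inhibitory receptor, fell. Its values were 8.45, 8.86 and 8.45 FPKM in NC and 5.28, 5.46 and 4.85 in RAB6A siRNA libraries. The spread within each group was small beside the gap, with a log2 fold change of -0.72 (SE 0.07, adjusted p = 5.6e-05, limma). With the correction for GC content and length it was -0.39 (adjusted p = 0.0028). Thus the pair that shares coding sequence went in opposite directions, Fcgr3 up and Fcgr2b down.

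Fcer1g, the common gamma chain that all 3 activating receptors need at the surface, was at 418, 398 and 441 FPKM in NC and at 583, 580 and 528 in RAB6A siRNA libraries. The groups did not overlap and the log2 fold change was 0.43 (SE 0.07, adjusted p = 0.0011, limma), yet it was -0.18 (adjusted p = 0.0198) under quantile normalization. Fcer1g has 874 exon bases, the shortest of the members. In this comparison the 1785 genes under 1000 exon bases had a median log2 fold change of 0.89, and longer genes one of -0.06. With the correction for GC content and length the value of Fcer1g was 0.01 (adjusted p = 0.906). Its direction thus depends on the scaling.

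Of the Src family kinases that phosphorylate the ITAM, Lyn was at 62.7, 58.6 and 55.7 FPKM in NC and at 54.1, 51.0 and 53.4 in RAB6A siRNA libraries. Lyn is also the kinase that phosphorylates the inhibitory ITIM. The groups came close without overlap, and the log2 fold change of -0.16 (SE 0.06, adjusted p = 0.0481, limma) was the smallest of the 9. The call held without NC replicate 3 (adjusted p = 0.0336) and was lost without any other single library, with adjusted p from 0.0591 without RAB6A siRNA replicate 3 to 0.170 without NC replicate 1. Under the correction for GC content and length Lyn turned to 0.18 (adjusted p = 0.0286).

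Fgr, a Src family kinase of myeloid cells, rose from a low level. It was at 0.883, 0.835 and 1.06 FPKM in NC and at 1.72, 1.91 and 1.83 in RAB6A siRNA libraries, that is, from 142 to 174 reads and from 231 to 279 reads per library. All RAB6A siRNA libraries lay above all NC libraries. The log2 fold change was 0.91 (SE 0.13, adjusted p = 5.3e-04, limma) with 0.1 FPKM added before the log, and 0.55 with 1 FPKM added, which weighs on a gene at this level. The ratio of Fgr to Lyn was 0.0345 ± 0.00279 in RAB6A siRNA libraries and 0.0158 ± 0.00280 in NC (SD, n = 3).

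Syk, the kinase that docks onto the phosphorylated ITAM, had the largest change of the 9 members. Its values were 18.5, 16.4 and 18.7 FPKM in NC and 8.90, 8.93 and 8.27 in RAB6A siRNA libraries. The 3 RAB6A siRNA libraries were close to each other and all far below NC. The log2 fold change was -1.03 (SE 0.07, adjusted p = 1.2e-05, limma), and it lay between -1.09 and -0.90 under all alternatives. Of all genes tested, 29.9% had a larger absolute change.

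Inpp5d, which encodes SHIP1, the phosphatase that FcgRIIB recruits to stop the signal, rose. It was at 11.8, 10.7 and 11.8 FPKM in NC and at 19.0, 17.5 and 16.9 in RAB6A siRNA libraries. The lowest RAB6A siRNA library was well above the highest of NC, and the log2 fold change was 0.64 (SE 0.07, adjusted p = 1.2e-04, limma). Under all alternatives it lay between 0.59 and 0.81.

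Several macrophage markers differed between the same groups. The sum of the 9 was 4516 to 4982 FPKM in NC and 3945 to 4097 in RAB6A siRNA libraries. Spi1, the gene of PU.1, was at 130 ± 9.28 FPKM in NC and at 62.9 ± 5.41 in RAB6A siRNA libraries, Csf1r, the receptor of the growth factor of macrophages, at 73.6 ± 8.48 and 27.0 ± 1.19, and Lyz2 at 872 ± 24.0 and 214 ± 23.0 (SD, n = 3). Adgre1 (56.3 ± 1.61 and 56.3 ± 2.62) and Itgam (23.1 ± 1.40 and 24.7 ± 3.29) had nearly the same mean in both, and Cd14, the co-receptor of LPS, was at 1679 ± 100.3 and 1943 ± 157. Cd68 was at 1850 ± 110.02 and 1682 ± 84.2, and Ptprc at 18.3 ± 0.367 and 20.6 ± 0.969. Among the 9, Lyz2 had the largest difference of means and weighs most on the difference of the sum. The part of these markers in the changes of the 9 members was not tested.

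**Figure D2:**
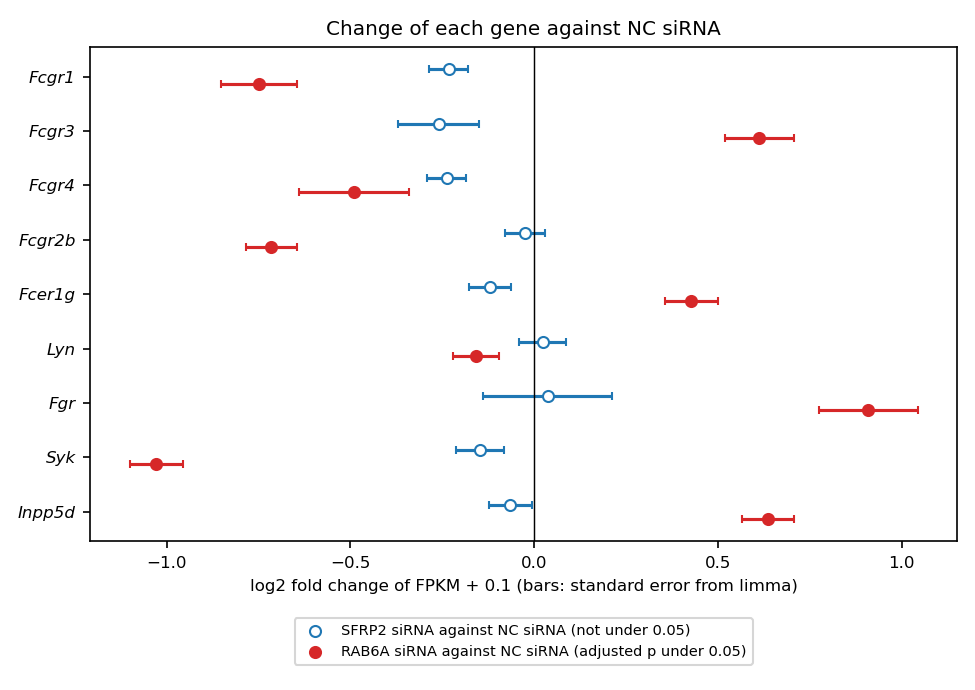
Log2 fold change of each member against NC siRNA with its standard error from limma, on log2(FPKM + 0.1); blue, SFRP2 siRNA, red, RAB6A siRNA, filled where the adjusted p is under 0.05. All 9 red points are filled, from -1.03 for Syk to 0.91 for Fgr, while 74.1% of all genes tested were called in that comparison. Fcer1g turns lower after quantile normalization and Lyn higher after a correction for GC content and length. No blue point is filled.

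Comparison of SFRP2 siRNA with NC asks whether the libraries labelled with the knockdown of SFRP2, a secreted modulator of Wnt signalling, differ in these genes. No member passed an adjusted p of 0.05 (limma), nor did any of the 12017 genes tested (0%). The study reports upregulated and downregulated DEGs for SFRP2 siRNA in RAW264.7 cells, called with DESeq2, which was not used here. The reason for this difference was not tested. At an unadjusted p under 0.05 there were 2 members, Fcgr1 and Fcgr4, both lower, and 2220 genes (18.5%, of which 10.7% of all genes lower). With voom on the recovered reads, 41 genes passed an adjusted p of 0.05, none of them a member. This comparison shares the NC libraries with that of RAB6A siRNA.

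The means of the activating alpha chains were lower in libraries labelled SFRP2 siRNA by about the same proportion, without passing the test over all genes. Fcgr1 was at 60.4, 55.8 and 54.0 FPKM, all below the lowest NC library, with a log2 fold change of -0.23 (SE 0.05, unadjusted p = 0.0032, adjusted p = 0.177, limma). Fcgr4 was at 21.3, 21.1 and 23.1, again all below NC, with -0.24 (SE 0.05, unadjusted p = 0.0028, adjusted p = 0.169). Fcgr3 was at 25.9, 25.0 and 19.8, and its highest library lay just under the lowest of NC, with -0.26 (SE 0.11, unadjusted p = 0.0502, adjusted p = 0.271). On the FPKM scale the means differed from those of NC by -14.8% for Fcgr1, -15.2% for Fcgr4 and -16.2% for Fcgr3. These proportions varied with the setting. Over all alternatives the log2 fold change lay between -0.28 and -0.16 for Fcgr1, -0.28 and -0.21 for Fcgr4, and -0.33 and -0.14 for Fcgr3. Fcgr1, Fcgr4 and Fcgr3 were the members whose groups did not overlap, and of all genes 24.7% did not overlap (13.9% lower). The summed macrophage markers were lower in these libraries too, at 3998 to 4323 FPKM against 4516 to 4982 in NC, a sum made up mostly of Cd68 and Cd14. Adgre1 was at 48.0 ± 0.487 against 56.3 ± 1.61, Cd68 at 1596 ± 47.6 against 1850 ± 110.02 (SD, n = 3). Cd14 was at 1516 ± 85.9 against 1679 ± 100.3 and Spi1 at 114 ± 5.47 against 130 ± 9.28. Csf1r (68.3 ± 4.33 against 73.6 ± 8.48) and Lyz2 (825 ± 81.4 against 872 ± 24.0) were lower within their spread. Itgam (25.6 ± 1.76 against 23.1 ± 1.40) and Ptprc (18.8 ± 0.637 against 18.3 ± 0.367) were higher. The part of the markers in the values of the receptors was not tested.

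The other 6 members overlapped with NC. Fcgr2b was at 8.11, 8.77 and 8.44 FPKM, with a log2 fold change of -0.03 (SE 0.05, adjusted p = 0.824, limma). Fcer1g was at 399, 389 and 368 (-0.12, SE 0.06, adjusted p = 0.309), and Syk at 16.7, 15.3 and 16.4 (-0.15, SE 0.07, adjusted p = 0.290). Each of these ranges reached into that of NC. Inpp5d was at 11.1, 10.7 and 10.96 FPKM (-0.06, SE 0.06), Lyn at 62.2, 61.9 and 55.9 (0.02, SE 0.06) and Fgr at 0.804, 1.10 and 0.961 (0.04, SE 0.17). The sign of Fcgr2b, Lyn and Fgr changed when 1 library was left out. In all, 7 of the 9 log2 fold changes were below 0, as were 52.5% of those of all genes. Across genes, the log2 fold change of this comparison went with GC content (Spearman's rho -0.482 over 11903 genes, which are not independent replicates). Over all alternatives, a correction for GC content and length included, values came as near to 0 as -0.0039 for Inpp5d, -0.06 for Fcer1g and -0.08 for Syk.

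Set against each other, SFRP2 siRNA and RAB6A siRNA libraries differed in 8 of the 9 members at an adjusted p of 0.05 (limma), while 73.4% of 12764 genes tested did (35.8% higher and 37.6% lower). Fcgr1 (0.52), Fcgr2b (0.69), Syk (0.88) and Lyn (0.18) had log2 fold changes above 0, that is, they were higher in SFRP2 siRNA libraries. Fcgr3 (-0.87), Fcer1g (-0.55), Fgr (-0.87) and Inpp5d (-0.70) were lower there. As against NC, Fcer1g (0.16 under quantile normalization) and Lyn (-0.19 under the correction for GC content and length) changed direction. Fcer1g also lost its call under that correction (adjusted p = 0.242). Lyn lost its call without SFRP2 siRNA replicate 1 (adjusted p = 0.107) or 2 (0.107) and without RAB6A siRNA replicate 2 (0.0980), as well as under quantile normalization (0.146). Fcgr4 did not pass (0.25, SE 0.16, adjusted p = 0.179), and it passed under that correction (0.42, adjusted p = 0.0373). No member met the DEG criterion here, which 31.1% of all genes met.

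Ratios within a library do not depend on how libraries are scaled to each other by a single factor, so the balance between members was also described, with no test. The 4 receptor genes summed to 129 ± 2.65 FPKM in NC, 111 ± 5.15 in SFRP2 siRNA and 107 ± 13.9 in RAB6A siRNA libraries (SD, n = 3). In NC, Fcgr1 made up 51.6% ± 0.819 of this sum, Fcgr3 21.8% ± 1.34, Fcgr4 19.95% ± 0.850 and Fcgr2b 6.66% ± 0.268. SFRP2 siRNA libraries had nearly the same makeup, with 51.3% ± 0.902, 21.3% ± 2.11, 19.8% ± 1.89 and 7.65% ± 0.553. In RAB6A siRNA libraries Fcgr3 had the largest mean share with 40.5% ± 1.95, followed by Fcgr1 with 37.3% ± 1.85, Fcgr4 with 17.3% ± 1.65 and Fcgr2b with 4.90% ± 0.388. In RAB6A siRNA replicate 1, however, Fcgr1 (39.3%) stood above Fcgr3 (38.4%). The ratio of Fcgr1 to Fcgr3 was 2.38 ± 0.167 in NC, 2.43 ± 0.256 in SFRP2 siRNA and 0.925 ± 0.0869 in RAB6A siRNA libraries.

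The activating alpha chains together stood at 14.04 ± 0.604 times the inhibitory Fcgr2b in NC. This ratio was 12.1 ± 0.991 in SFRP2 siRNA libraries, from 11.5 to 13.3 and thus below the 13.4 to 14.6 of NC, and 19.5 ± 1.56 in RAB6A siRNA libraries, from 17.7 to 20.7. Fcer1g stood at 3.48 ± 0.115 times the activating alpha chains in NC, 3.77 ± 0.0605 in SFRP2 siRNA and 5.59 ± 0.485 in RAB6A siRNA libraries. The last value rests on Fcer1g and carries its limit on short genes. The ratio over Fcgr2b has a limit of its own. With RAB6A siRNA the log2 fold change of Fcgr2b was -0.72, and -0.39 with the correction for GC content and length. With SFRP2 siRNA, fold changes went with GC content (rho -0.482), and Fcgr2b has the lowest GC content of the 4 receptors (45.4% against 48.2% to 51.6%). No ratio was recomputed with that correction. The ratio of Syk to Inpp5d was 1.56 ± 0.0236 in NC, 1.48 ± 0.0341 in SFRP2 siRNA and 0.489 ± 0.0196 in RAB6A siRNA libraries. No RAB6A siRNA library (0.470 to 0.509) came near the others (1.44 to 1.59).

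**Figure D3:**
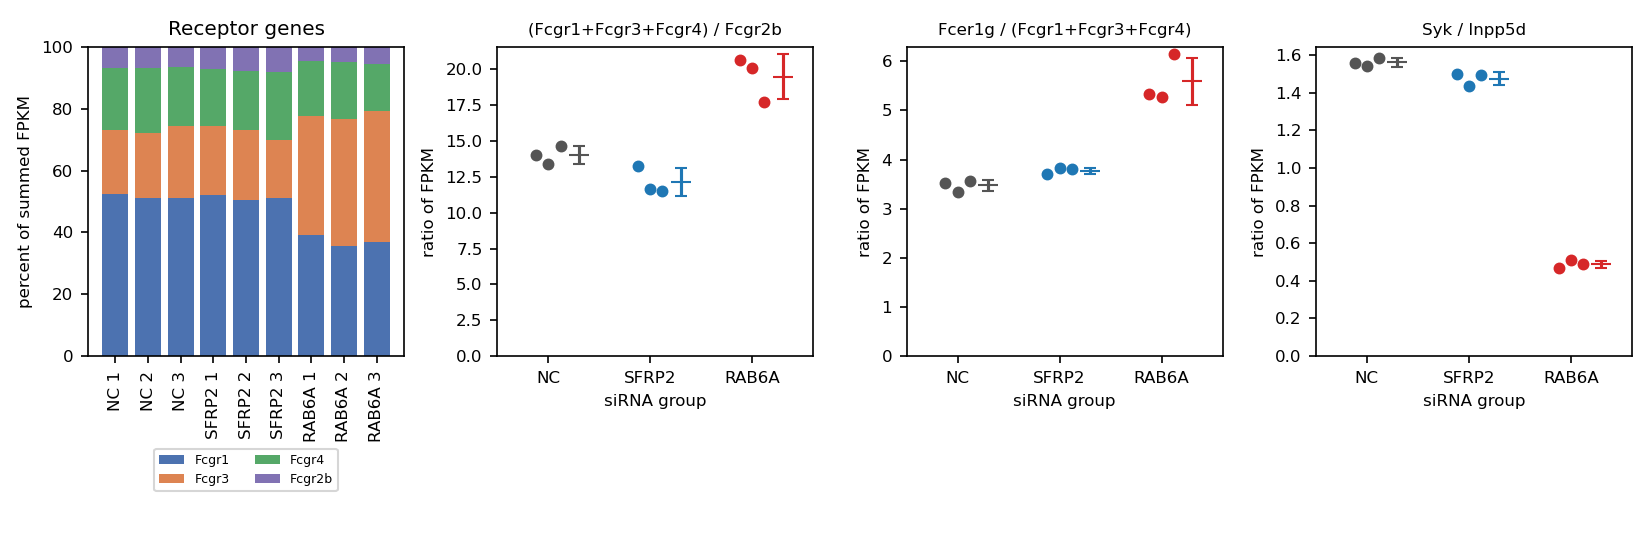
Left, share of each receptor gene in the summed FPKM of the 4, per library; right, 3 ratios of FPKM per library with the mean and SD of each group (n = 3), on axes from 0. In RAB6A siRNA libraries the share of Fcgr3 is 40.5% against 21.8% in NC and the ratio of Syk to Inpp5d is 0.489 against 1.56, while the ratio with Fcer1g rests on a gene whose change turns lower after quantile normalization.

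The genes around the members were taken from a list of 99 genes of Fc receptor signalling in 8 classes, of which 78 were tested in the comparison of RAB6A siRNA with NC. Of these, 62 passed (limma, adjusted p under 0.05), 26 higher and 36 lower, a share of 79.5% beside the 74.1% of all genes. The correction for GC content and length turned this split to 34 higher and 27 lower. Their median log2 fold change was -0.10, and that of all genes was 0.03. In libraries labelled SFRP2 siRNA, 0 of 77 passed (limma), and 19 had an unadjusted p under 0.05, 6 higher and 13 lower. Of all genes tested there, 18.5% had such a p, with 10.7% of all genes lower.

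Of 12 other Fc receptors listed, 3 passed the filter on low values. Trim21, the cytosolic receptor of antibodies that enter with a virus, fell from 7.80 ± 0.328 to 1.66 ± 0.0718 FPKM with RAB6A siRNA (log2 fold change -2.17, SE 0.08, adjusted p = 1.1e-06, limma). Fcgrt, the neonatal receptor that recycles IgG, rose from 1.01 ± 0.0895 to 2.85 ± 0.732 (1.38, SE 0.20, adjusted p = 4.6e-04). The other tested was Fcrl1, known from B cells, which fell from 22.7 ± 3.27 to 10.2 ± 0.705 FPKM (-1.15, adjusted p = 5.6e-05) and was singled out after its values were seen.

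Of the other ITAM adaptors and receptors 2 were tested, and both are named after their values were seen. Tyrobp (DAP12), the ITAM adaptor nearest to Fcer1g in kind, was at 210 ± 3.17 FPKM in NC and 413 ± 48.5 in RAB6A siRNA libraries (0.97, adjusted p = 5.0e-05, limma). It has 667 exon bases, and with the correction for GC content and length its log2 fold change was 0.31 (adjusted p = 0.0040). Trem2, a receptor that signals through Tyrobp, fell (-0.63, adjusted p = 2.1e-04).

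Among 8 other Src family kinases and their regulators tested, 4 rose and 3 fell with RAB6A siRNA, beside 37.6% higher and 36.5% lower over all genes. Csk, the kinase that holds Src kinases inactive, was chosen after its values were seen and fell from 21.4 ± 0.474 to 9.44 ± 0.517 FPKM (-1.17, adjusted p = 3.7e-06, limma). It kept its direction and its call under quantile normalization and under the correction for GC content and length.

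Of 11 inhibitory phosphatases, adaptors and ITIM receptors tested, 5 rose and 5 fell, beside 37.6% higher and 36.5% lower over all genes. Lilrb4a, an ITIM receptor with the largest gain among the listed genes tested, was at 108 ± 6.47 FPKM in NC and 551 ± 71.7 in RAB6A siRNA libraries (2.35, SE 0.10, adjusted p = 2.2e-06, limma). Mice carry a near-identical copy, Lilrb4b, so its reads are uncertain. The adaptors Dok3 (1.41, SE 0.14) and Dok1 (1.14, SE 0.07), which dampen signals of immune receptors, rose too. Cd300a, another ITIM receptor, fell from 8.66 ± 0.610 to 1.91 ± 0.284 FPKM (-2.13, SE 0.12).

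Downstream of Syk, 4 of 18 lipid signalling genes tested rose and 12 fell with RAB6A siRNA, beside 37.6% higher and 36.5% lower over all genes, and 4 rose and 8 fell with the correction for GC content and length. Pik3r5, a regulatory subunit of the PI3-kinase of class IB, fell from 66.2 ± 3.19 to 16.3 ± 1.53 FPKM (-2.02, SE 0.08, adjusted p = 1.5e-06, limma), and its catalytic partner Pik3cg from 12.6 ± 0.639 to 5.04 ± 0.204 (-1.31, SE 0.07). Of 15 adaptors, 6 rose and 5 fell, again beside 37.6% higher and 36.5% lower over all genes. With that correction, 9 rose and 3 fell. Blnk, an adaptor that Syk phosphorylates, fell from 3.09 ± 0.268 to 0.643 ± 0.0439 FPKM (-2.10, SE 0.12, adjusted p = 5.6e-06, limma). Of 3 other tyrosine kinases downstream, 1 fell and none rose (limma, adjusted p under 0.05), and 2 rose both with that correction and under quantile normalization.

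Of 18 cytoskeletal genes tested, 5 rose and 7 fell with RAB6A siRNA, beside 37.6% higher and 36.5% lower over all genes. With the correction for GC content and length, 8 rose and 5 fell. Wasl (N-WASP), which drives actin branching, rose from 5.37 ± 0.363 to 14.4 ± 1.27 FPKM (1.41, SE 0.09, adjusted p = 7.0e-06, limma). In SFRP2 siRNA libraries the 2 listed genes with the smallest unadjusted p in each direction were of this class too, and none passed the adjusted threshold (limma). Vav1, an exchange factor of Rac, was at 45.4 ± 1.06 FPKM against 54.0 ± 2.48 in NC (-0.25, SE 0.05, adjusted p = 0.165) and Rac2 at 181 ± 11.8 against 219 ± 10.2 (-0.28, SE 0.06, adjusted p = 0.169). Those above NC were Cdc42 (0.26, SE 0.08, adjusted p = 0.2003) and Wasl (0.23, SE 0.07, adjusted p = 0.193). Between SFRP2 siRNA and RAB6A siRNA, 57 of 78 listed genes passed, 31 higher and 26 lower in SFRP2 siRNA libraries, a share of 73.1% beside the 73.4% of all genes. The correction for GC content and length turned this split to 23 higher and 32 lower.

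**Figure D4:**
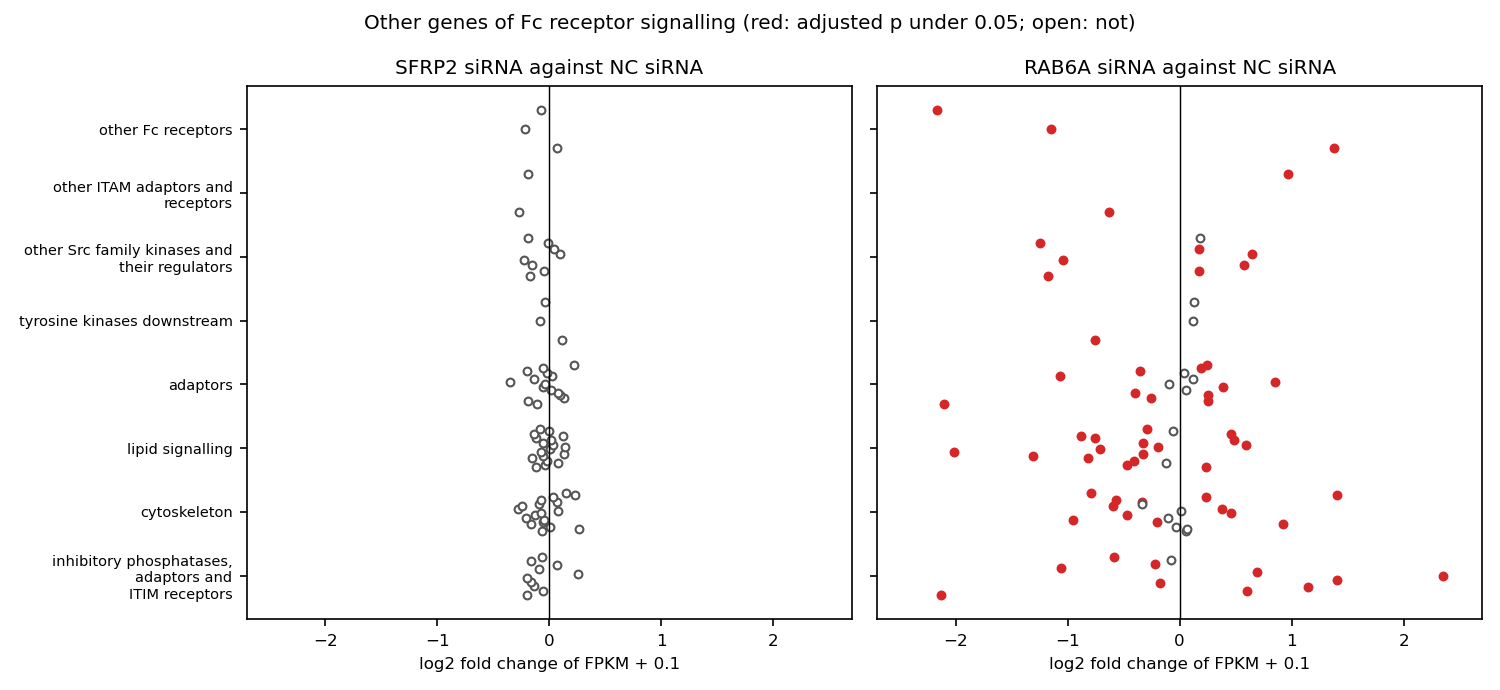
Log2 fold change against NC siRNA of the listed genes of Fc receptor signalling that were tested, 77 for SFRP2 siRNA and 78 for RAB6A siRNA, by class; red points have an adjusted p under 0.05 (limma). With RAB6A siRNA 26 are higher and 36 lower, beside 37.6% higher and 36.5% lower over all genes. This split turns to 34 and 27 after a correction for GC content and length. With SFRP2 siRNA none passes.

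Genes whose values went most closely with a member over the 9 libraries were named as a description, by Pearson's r of log2(FPKM + 0.1) over 12549 genes. The libraries fall into groups that differ in most genes, and high values are common for that reason. For Syk these were Zfp710 (r = 0.999), Nif3l1 (0.999) and Tor3a (0.998), for Fcgr2b Med8 (0.995), Zbtb1 (0.995) and Ceacam19 (0.994), and for Fcer1g Dvl1 (0.998), Cyth4 (0.996) and Vps72 (0.995). An r over 0.95 was reached by 1907 genes with Syk, 1934 with Fcgr2b and 1312 with Fcer1g.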

How the data were processed

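RNA-seq values of 9 RAW264.7 libraries were analysed, grouped by their labels. Per gene (Ensembl identifier), the authors deposited FPKM values of each library. The submitters' processing notes name HISAT2, featureCounts and Subread, and the genome build and annotation are not given in the sources used here. Names, coordinates and exon lengths were taken from GENCODE M21 (GRCm38) and promoters from RefSeq (GRCm38.p6).

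Multiplied by exon length, low FPKM values stepped evenly within a library, and the step was taken as 1 read. On this scale 27084 genes (98.4%) were whole within 0.03 of a read in all 9 libraries. These reads gave the depths and an alternative with voom.

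Groups were compared with limma 3.58.1 in R 4.3.3 (eBayes with an intensity trend) on log2(FPKM + 0.1), for genes whose mean over the 6 libraries compared reached 0.5 FPKM. P-values were adjusted by Benjamini-Hochberg over all genes tested. DESeq2, named by the authors, was not used, since the deposited unit is FPKM and the recovered reads served only for an alternative. The fit was tested on simulated data. The changes simulated were all larger than those of the members between SFRP2 siRNA and NC, so recovery of changes that small was not tested. Exact permutation tests used Python 3.11.15 with scipy 1.17.1. Fold changes on this scale understate those of low genes such as Fgr. RefSeq had no promoter of Lyn in the table used.

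Named genes were the 9 members, Sfrp2, Rab6a, cell type markers, up to 5 listed pathway genes of highest and of lowest log2 fold change among those called without overlap (where none was called, the 2 smallest unadjusted p in each direction) and, for Fcer1g, Fcgr2b and Syk, the 3 genes most like them. Members and lists were chosen with earlier results of these data known. Replicate numbers come from the labels, which do not say that they mark shared cultures. A listed gene is counted but not reported by name here.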

Additional observations from a re-analysis of the deposited data

How the results depend on the processing

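Results were recomputed with 1 or 0.01 FPKM added before the log, with every gene or only those of a mean of 1 FPKM or more, with quantile or median-of-ratios scaling, with a replicate block, without the eBayes trend, with all 9 libraries fitted together, with voom on the recovered reads, with unadjusted p-values and with each library left out. A correction for GC content and length by splines with 5 degrees of freedom was chosen after seeing the data. In the comparison of RAB6A siRNA with NC, 138 recomputed log2 fold changes of members kept their direction and their side of the threshold, 13 lost the call and 2 reversed, Fcer1g under quantile normalization (-0.18) and Lyn under the correction for GC content and length (0.18). No member was a DEG (0) with 1 FPKM added, under quantile normalization or without RAB6A siRNA replicate 3 (Syk at -0.99), so that leaving out a library gave 0 to 1. Without NC replicate 3 and under the correction, Fgr (1.00 and 1.17) was the DEG in place of Syk (-0.99 and -0.90). In SFRP2 siRNA against RAB6A siRNA, Fcer1g reversed under quantile normalization (0.16) and Lyn under the correction (-0.19), which also made 1 member, Fgr, a DEG. In SFRP2 siRNA against NC, unadjusted p-values gave 2 members and 19 other listed genes, beside 18.5% of all genes. In that comparison the sign changed for Lyn under the correction (-0.0137) and, with 1 library left out, for 3 members. Fgr ranged from -0.0605 to 0.143 and was below 0 without NC replicate 2 or SFRP2 siRNA replicate 2, Lyn ranged from -0.0170 to 0.0736 and was below 0 without NC replicate 3 or SFRP2 siRNA replicate 1, and Fcgr2b ranged from -0.0531 to 0.0028, above 0 without SFRP2 siRNA replicate 1. The cause of these changes was not tested.

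Ratios taken from reads not divided by gene length differ by construction. For NC, SFRP2 siRNA and RAB6A siRNA they were 5.10, 4.41 and 6.68 for the activating alpha chains over Fcgr2b, 1.44, 1.57 and 2.46 for Fcer1g over the activating alpha chains, and 1.93, 1.82 and 0.602 for Syk over Inpp5d.

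Deviations of same-numbered libraries correlated at -0.0648 to 0.0539, so the numbers were not taken to pair the samples. With the replicate block, 8 members were called for RAB6A siRNA against NC (limma), without Lyn (adjusted p = 0.0764), beside 9103 of 12712 genes. For SFRP2 siRNA against RAB6A siRNA 7 were called, again without Lyn (adjusted p = 0.0568), beside 9159 of 12764 genes. For SFRP2 siRNA against NC 0 were called, as were 0 of 12017 genes.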
